A study of Mus musculus with 10 samples.

Results

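The genes described here are 41 components of autophagy and mitophagy, chosen by name as initiation factors, conjugation enzymes, LC3 and GABARAP proteins, cargo receptors, mitophagy genes and the transcription factors Tfeb and Tfe3. They are 41 of 21098 genes in a count table of gastrocnemius muscle (GAS), and 25 of them passed the filter on low counts that 7813 genes passed in all. The table compares 5 libraries of diet-induced obese (DIO) mice given an antisense oligonucleotide against miR-22 (anti-miR-22 ASO) with 5 libraries of DIO control mice (CTRL). All mice were wild-type C57BL/6J males that were offered the high-fat diet D12492i from 9 weeks of age. It was given for 9 weeks before treatment and, by the study's methods, also during the injections. By the study's weight records, some control mice were lighter at the first injection than any mouse of the ASO group, so starting weight and treatment cannot be told apart. Once a week for 14 weeks they then received a subcutaneous injection, either of the ASO at 10 mg/kg or of a matched volume of 0.9% saline, and the series' design gives an age of 30 weeks at the end, less than these periods add up to. The ASO is a mixmer, a strand that intersperses LNA with DNA bases on a phosphorothioate backbone. Saline was its only control in this series, so an effect of the sequence and an effect of the chemistry cannot be told apart. The labels number the libraries within each group without stating that each is a separate mouse, so the p-values measure the spread between libraries. No segment of the gene for miR-22 or of its host transcript is counted, which leaves the labels without a check on the targeted RNA.

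Autophagy encloses cytoplasm in a double membrane and delivers it to the lysosome. The ULK1 kinase complex starts the process, a class III PI3-kinase complex marks the membrane with a lipid, and a ubiquitin-like conjugation system then attaches LC3 and GABARAP proteins to it, where cargo receptors bind. In skeletal muscle this route removes damaged mitochondria (mitophagy) and supplies amino acids during fasting, and transcription factors such as TFEB can raise many of its genes together.

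The counts lie on segments of at most 500 bp, the last stretch of each annotated transcript, and a gene can have several segments that end at different places. Levels below are counts summed over the segments of a gene and scaled to library size with TMM factors (CPM), given as mean ± SD over 5 libraries. Folds are log2 values of the anti-miR-22 ASO over CTRL, and calls are those of edgeR's quasi-likelihood test at an adjusted p of 0.05, with the Benjamini-Hochberg adjustment made over all 7813 genes. In bulk muscle, fewer cells of a type and less RNA per cell cannot be told apart.

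miR-22-3p itself and its possible sites in the tested members are shown first, since the ASO was directed at this RNA. The mature sequence from RefSeq (GRCm38.p6, chr11:75463772-75463793, plus strand) has its seed, bases 2 to 8, in capitals.
mmu-miR-22-3p: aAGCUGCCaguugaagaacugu
The letters that pair with this seed, GGCAGCT, occur in the longest annotated 3′UTR of 5 of the 25 tested members (20%) and of 1690 of 7781 tested protein-coding genes (21.7%), sought on the transcribed strand. The 5 sites are given with the match in capitals and with coordinates on GRCm39.
Ulk2 (chr11:61667547-61667575, minus strand): cttaggaaatgGGCAGCTctctccagact
Atg101 (chr15:101188562-101188590, plus strand): ggagccttaatGGCAGCTccttaatggtt
Atg4b (chr1:93717559-93717587, plus strand): acaaagtcaatGGCAGCTactcaggaggc
Nbr1 (chr11:101471467-101471495, plus strand): attctgcgacaGGCAGCTgaacctaaggc
Bnip3 (chr7:138491389-138491417, minus strand): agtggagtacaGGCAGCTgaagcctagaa
The match of Atg4b is followed by an A, the longer 8mer form, and the others are 7mers. Of these 5 genes, Ulk2 was higher with the ASO, Atg4b and Nbr1 were lower, and Atg101 and Bnip3 did not pass the threshold. The site of Atg101 lies within a counted segment, and those of Ulk2, Atg4b, Nbr1 and Bnip3 do not. The counts of Nbr1 and Bnip3 and most of those of Atg4b came from segments that end upstream of the site. A match describes the letters in the annotation and does not show that the site is used.

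Of the 25 tested members, 4 were higher with the anti-miR-22 ASO (Ulk1, Ulk2, Map1lc3a and Tax1bp1) and 5 were lower (Atg4a, Atg4b, Atg4d, Nbr1 and Fundc1), while 16 did not pass the threshold. That is 36% called in either direction, beside 29.2% of all tested genes, of which 11.8% were called higher and 17.4% lower. In 3 members all 5 ASO libraries lay above all CTRL libraries, and in 4 all lay below, beside 7.97% and 13.4% of all tested genes. The median log2 fold change over the tested members was -0.14, and it was -0.03 over all tested genes. With total counts in place of TMM the median of all genes shifted to -0.21, the share of higher genes among all calls was 22.5% in place of 40.3%, and the members split into 1 higher and 9 lower. Upper quartile scaling moved that share the other way, to 51.1%.

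**Figure D1:**
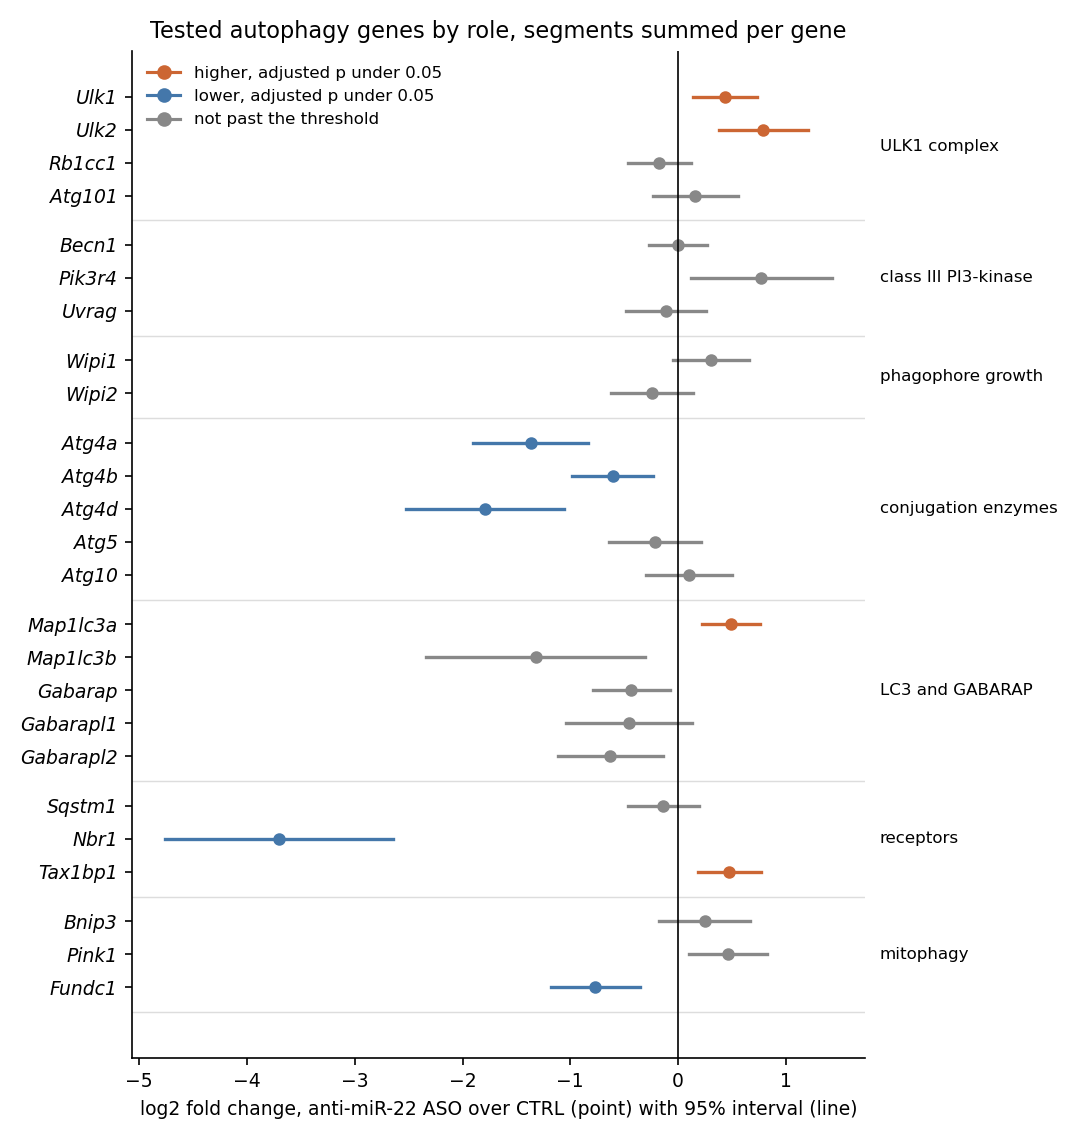
Log2 fold change of the anti-miR-22 ASO over CTRL for the 25 tested members (points, with 95% intervals as lines), ordered by role. The 4 higher genes (orange) lie between 0.43 and 0.79, and the 5 lower genes (blue) spread from -0.61 to -3.70.

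In the ULK1 complex, which receives nutrient signals and starts autophagy, 4 of 5 genes were tested and 2 were higher, both of them the kinases. Ulk1 was measured at 164.6, 218.7, 166.0, 176.4 and 166.8 CPM in CTRL and at 229.8, 285.9, 223.7, 206.7 and 260.8 CPM with the ASO. The groups overlapped only between the highest CTRL and the lowest ASO library. Its mean rose from 178.5 ± 23.0 to 241.4 ± 31.7 CPM, a log2 fold change of 0.43 (SE 0.14, adjusted p = 0.0314 by edgeR, n = 5 and 5). This call was lost without CTRL replicate 1, 3, 4 or 5 or without ASO replicate 2 or 5, with adjusted p between 0.0615 and 0.0749, with total counts (adjusted p = 0.156), without the filter on low counts (adjusted p = 0.059), with the replicate block (adjusted p = 0.0527), and on exonic (adjusted p = 0.0675) or most distal segments alone (adjusted p = 0.436).

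Ulk2, the second kinase of this kind, stood at 161.8, 200.5, 108.2, 133.9 and 103.9 CPM in CTRL and at 269.4, 223.9, 232.6, 211.3 and 291.0 CPM with the ASO. Every ASO library was above every CTRL library. The mean went from 141.7 ± 40.2 to 245.6 ± 33.3 CPM, 1.73-fold or 0.79 on the log2 scale (SE 0.19, adjusted p = 0.0084 by edgeR), and the call held without any single library, with adjusted p up to 0.0255. Rb1cc1, the large scaffold of the complex, had a log2 fold change of -0.17 (adjusted p = 0.359), and Atg101, a small stabilising subunit, one of 0.16 (adjusted p = 0.539). Atg13, the subunit that links the kinase to the scaffold, had 2 counts in all, on a segment with 1 base not shared with another segment.

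Of the class III PI3-kinase complex, 3 of 6 genes were tested and none passed the threshold in the edgeR fit of gene sums. Becn1, its regulatory subunit, stood at 138.5 ± 9.42 CPM in CTRL and 138.7 ± 17.7 CPM with the ASO, a log2 fold change of 0.00 with a 95% interval from -0.27 to 0.27. Pik3r4, which anchors the catalytic subunit, was low, at 4.22 ± 1.08 and 7.30 ± 2.26 CPM (log2 fold change 0.77, adjusted p = 0.0717), and Uvrag, a subunit of the endosomal form, had a log2 fold change of -0.11 (adjusted p = 0.664). In the fit of single segments, the only counted segment of Pik3r4 was higher (log2 fold change 0.81, adjusted p = 0.0472 by edgeR over all segments). The catalytic subunit Pik3c3 had 81 counts over 10 libraries, Atg14, the subunit of the autophagy-specific form, 3 and Ambra1, a Beclin 1 partner, 0, and they were not tested. In phagophore growth, the lipid-binding proteins Wipi1 (0.31, adjusted p = 0.178) and Wipi2 (-0.24, adjusted p = 0.319) did not pass, and Atg9a, Atg2a and Atg2b, which carry and transfer membrane lipid, had 33, 0 and 0 counts.

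Of the conjugation enzymes, 5 of 10 genes were tested and 3 were lower. These 3 are ATG4 proteases, which trim LC3 and GABARAP before conjugation and release them from membranes afterwards. Atg4a was at 46.7, 58.8, 53.9, 70.2 and 80.9 CPM in CTRL and at 34.3, 30.6, 12.7, 21.3 and 21.2 CPM with the ASO, without overlap, and its mean fell from 62.1 ± 13.6 to 24.01 ± 8.55 CPM (log2 fold change -1.37, SE 0.25, adjusted p = 0.0019). Atg4d was at 36.8, 26.6, 33.1, 54.9 and 49.99 CPM in CTRL and at 21.2, 14.0, 5.08, 8.35 and 9.43 CPM with the ASO, again without overlap (log2 fold change -1.79, SE 0.34, adjusted p = 0.00234).

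Atg4b, the protease with the broadest substrate range of the family, was at 69.3, 55.0, 91.9, 86.2 and 82.6 CPM in CTRL and at 61.3, 45.9, 39.3, 56.4 and 49.5 CPM with the ASO. The groups overlapped. Its log2 fold change was -0.61 (SE 0.17, adjusted p = 0.0192), and the call was lost without ASO replicate 3 (adjusted p = 0.0523). Atg5, which forms the conjugate that directs LC3 to the membrane, had a log2 fold change of -0.21 (adjusted p = 0.443), and Atg10, which joins ATG12 to ATG5, one of 0.10 (adjusted p = 0.701). The enzymes Atg7 (0 counts), Atg3 (30) and Atg4c (2) and the conjugate parts Atg12 (18) and Atg16l1 (14) were too low to test. Atg3 and Atg12 have a segment with 500 bases of its own, whereas the largest such stretch is 6 bases for Atg7, 4 for Atg4c and 3 for Atg16l1.

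All 5 LC3 and GABARAP genes, whose products are the membrane-bound tags of the autophagosome, were tested, and 1 was higher. Map1lc3a was at 751.8, 749.4, 774.3, 805.5 and 735.3 CPM in CTRL and at 922.7, 1260, 1120, 1040 and 1028 CPM with the ASO. No ASO library reached down to a CTRL library. The mean rose from 763 ± 27.4 to 1074 ± 125.2 CPM (log2 fold change 0.49, SE 0.12, adjusted p = 0.011), a call that total counts did not keep (0.31, adjusted p = 0.0822). The other 4 genes had negative log2 fold changes without passing the threshold, namely Map1lc3b (-1.32, adjusted p = 0.0511), Gabarapl2 (-0.63, adjusted p = 0.0522), Gabarap (-0.43, adjusted p = 0.0675) and Gabarapl1 (-0.45, adjusted p = 0.226). Gabarap was at 163.7, 165.1, 208.5, 151.6 and 164.6 CPM in CTRL and at 118.3, 147.4, 83.7, 135.7 and 147.1 CPM with the ASO, so that its groups did not overlap. Map1lc3b rested on 125 counts in all, of which 88% came from a segment with 17 bases of its own. That stretch has 3 near-identical copies elsewhere in the genome (up to 99.2% identity), so its level is uncertain. Tested alone, this segment was lower (log2 fold change -1.37, adjusted p = 0.0481 by edgeR over all segments).

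Among the receptors that tie ubiquitinated cargo to LC3, Tax1bp1 was higher, Nbr1 was lower and Sqstm1, the gene of p62, did not pass. Tax1bp1 was at 138.2, 133.4, 130.4, 116.8 and 93.8 CPM in CTRL and at 158.4, 159.7, 196.2, 165.7 and 172.6 CPM with the ASO. Its ASO libraries all lay above CTRL, with means of 122.5 ± 17.9 and 170.5 ± 15.4 CPM (log2 fold change 0.48, SE 0.13, adjusted p = 0.0189), and total counts ended the call (adjusted p = 0.112). Sqstm1 stood at 355.9 ± 24.5 and 324.0 ± 61.3 CPM (log2 fold change -0.14, adjusted p = 0.527), and Optn, a receptor for mitochondria and bacteria, had 18 counts in all.

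Nbr1, a receptor for protein aggregates and peroxisomes, had the largest fold change of the members. Its counts were 27, 33, 38, 50 and 69 in CTRL and 9, 2, 2, 2 and 4 with the ASO, although the ASO libraries were the deeper ones. No ASO library came near a CTRL library. The scaled means were 23.0 ± 10.9 and 1.75 ± 1.52 CPM (log2 fold change -3.70, SE 0.49, adjusted p = 0.000338). All counts of Nbr1 came from 1 segment that ends 22389 bp upstream of its most distal one and holds 456 bases of intron. Its most distal segment has 0 bases of its own and no counts, so mRNA with that end was not measured. Sqstm1, Nbr1 and Tax1bp1 share a function as adaptors, and their log2 fold changes spanned from -3.70 to 0.48. These values do not rest on like parts of the genes, since Tax1bp1 was read from its most distal segment.

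Among the mitophagy genes, 3 of 4 were tested. Fundc1, a receptor on the outer mitochondrial membrane used under low oxygen, was at 148.6, 159.0, 103.8, 151.1 and 172.4 CPM in CTRL and at 108.6, 101.5, 68.5, 60.9 and 92.0 CPM with the ASO. The groups overlapped by 1 CTRL library. Its mean fell from 147.0 ± 25.9 to 86.3 ± 20.8 CPM (log2 fold change -0.77, SE 0.19, adjusted p = 0.00983). Pink1, the kinase that labels damaged mitochondria, stood at 162.7 ± 19.1 and 224.4 ± 54.1 CPM (log2 fold change 0.46, adjusted p = 0.0551). Of its counts, 95.8% came from a segment of only 37 bp. Tested alone, that segment was higher (log2 fold change 0.52, adjusted p = 0.0294 by edgeR over all segments). Bnip3, another outer membrane receptor, stood at 749.2 ± 201.0 and 890.2 ± 169.1 CPM (log2 fold change 0.25, adjusted p = 0.36), and its main segment has 3 copies in the genome with up to 97.3% identity. Bnip3l, its relative, had 0 counts, and the transcription factors Tfeb and Tfe3 had 7 and 1.

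**Figure D2:**
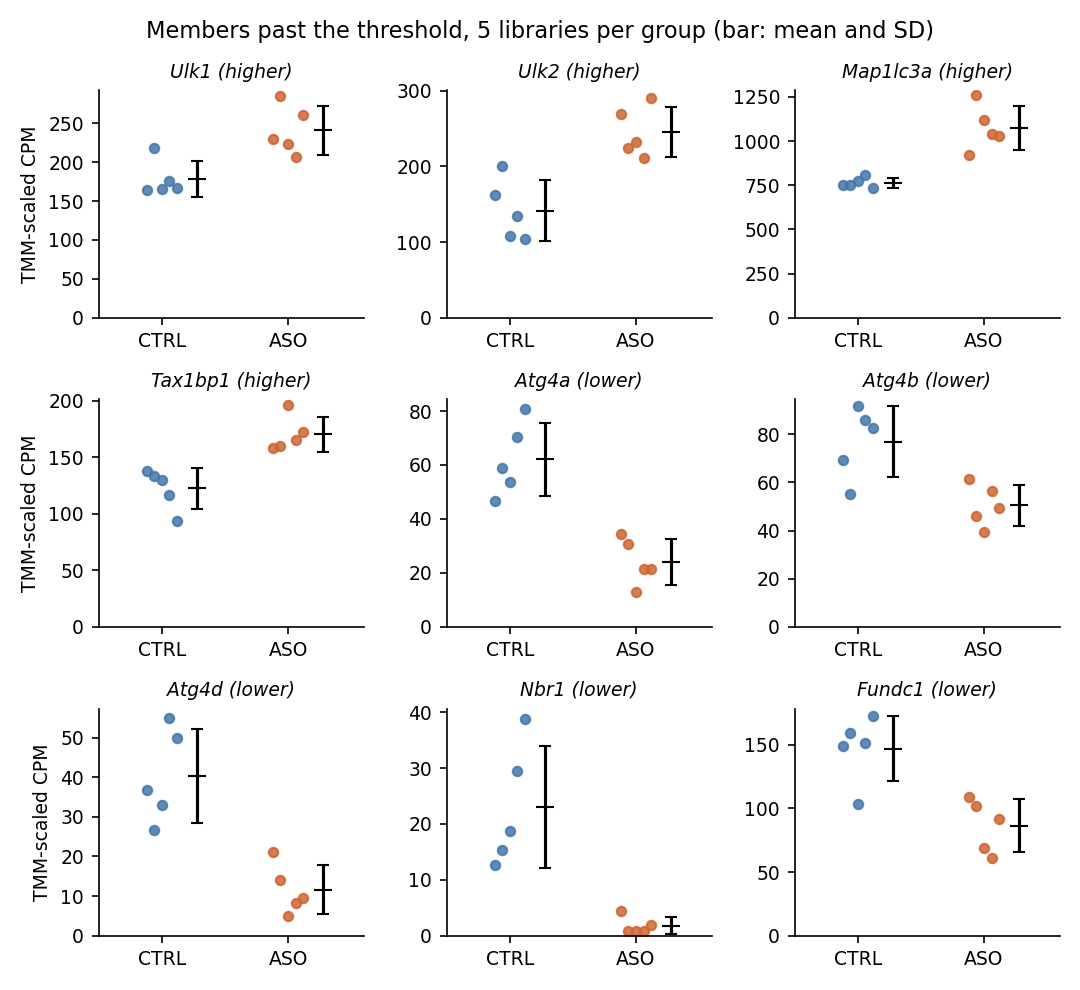
CPM of the 9 members past the threshold in each of the 5 CTRL (blue) and 5 anti-miR-22 ASO (orange) libraries, with the mean and SD beside the points and each axis starting at 0. Ulk2, Map1lc3a and Tax1bp1 have all ASO points above CTRL, and Atg4a, Atg4d and Nbr1 have all of them below.

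A member at 0 counts need not be silent. Of its 52423 segments, 17984 have no base that another segment on the same strand does not also cover, and those hold 0.043% of the counts. Among the 16 untested members, 11 have no segment with more than 20 bases of its own, and 5 have 0 counts. Atg13, Atg14, Ambra1, Atg9a, Atg2b, Atg4c, Atg7, Atg16l1, Optn, Bnip3l and Tfe3 are these 11, so their levels could not be read here. They include the E1-like enzyme Atg7, on which both conjugation reactions depend.

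Where along the gene the counts lay differed between the higher and the lower members. In the 4 higher members, between 98.3% and 100% of the counts came from the most distal segment, the one that ends closest to the 3′ end of the gene. Of these, Ulk2, Map1lc3a and Tax1bp1 have only 1 segment, so their share of 100% was fixed by the annotation. In the 5 lower members that share was 54.9% for Fundc1, 13.5% for Atg4d, 3.05% for Atg4b and 0% for Atg4a and Nbr1. The most distal segments of Atg4a and Nbr1 have 0 bases of their own, and 45.7% of the counts of Atg4a lay on a segment 75 bp away. The contrast in position thus depends in part on how the segments were annotated. Of the 5 lower members, 4 had more than 50% of their counts on segments with at least 50% of their bases in introns of the canonical transcript (GENCODE M39 on GRCm39). No counts of the 4 higher members came from such a segment.

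The counts of Nbr1 came from a single segment at chr11:101449889-101450388 on GRCm39, which ends 22389 bp upstream of its most distal segment and holds 456 bases of intron and 44 coding bases. Atg4d had 86.5% of its counts on chr9:21177996-21178223, which lies 10845 bp upstream and has 123 intronic and 105 coding bases. Atg4a had 54.3% on chrX:139895690-139896189, 51077 bp upstream, with 321 intronic bases. Atg4b had 54.5% and 42.5% on segments 2733 and 5687 bp upstream, with 308 and 287 intronic bases. These segments belong to transcripts annotated as subject to nonsense-mediated decay, a surveillance route for messages with an early stop.

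Windows of 60 bases from the GRCm39 genome are given for 1 exon boundary each in segments of Nbr1, Atg4d, Atg4a, Atg4b (the one 5687 bp upstream) and Becn1 (the one 5431 bp upstream), with the exon of the canonical transcript in capitals and the intron in lower case. They are shown because a spliced mRNA of the canonical form would lack the letters in lower case. Counts are not placed within a segment, so the windows do not show that reads covered these letters. The same segments hold coding bases (44 in Nbr1, 105 in Atg4d, 179 in Atg4a, 213 in Atg4b and 150 in Becn1), where spliced mRNA would be counted too.
Nbr1, start of exon 5 of 24 (chr11:101450315-101450374, plus strand): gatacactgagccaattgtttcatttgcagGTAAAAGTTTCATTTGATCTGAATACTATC
Atg4d, end of exon 2 of 10 (chr9:21178089-21178148, plus strand): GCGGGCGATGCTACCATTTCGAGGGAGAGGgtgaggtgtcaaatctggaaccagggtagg
Atg4a, start of exon 8 of 13 (chrX:139895981-139896040, plus strand): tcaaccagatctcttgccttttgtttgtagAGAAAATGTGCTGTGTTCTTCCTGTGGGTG
Atg4b, end of exon 9 of 13 (chr1:93712183-93712242, plus strand): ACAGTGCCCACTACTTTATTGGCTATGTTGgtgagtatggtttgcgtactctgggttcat
Becn1, start of exon 9 of 12 (chr11:101182329-101182388, minus strand): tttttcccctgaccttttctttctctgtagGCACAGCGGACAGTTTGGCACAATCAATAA
In each window the intron carries the usual splice letters, gt at its start or ag at its end.

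Each segment was then tested on its own. Over all 10652 tested segments, 16% were higher and 24.7% lower with the ASO, and of the 40 tested member segments 8 were higher and 11 lower. By distance, the median log2 fold change of the most distal segments was 0.30 over all genes, with 25.2% higher and 4.37% lower. Segments that end less than 1000 bp upstream had a median of -0.18, those from there to 5000 bp one of -0.76, and those at 5000 bp or more one of -1.05, with 56.9% lower. Of the member segments, 6 of the 16 most distal ones were higher and 0 lower, and all 5 at 5000 bp or more were lower. The segments of all genes with at least 50% intronic bases had a median of -0.82 with 52.4% lower, and 7 of the 8 such member segments were lower.

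**Figure D3:**
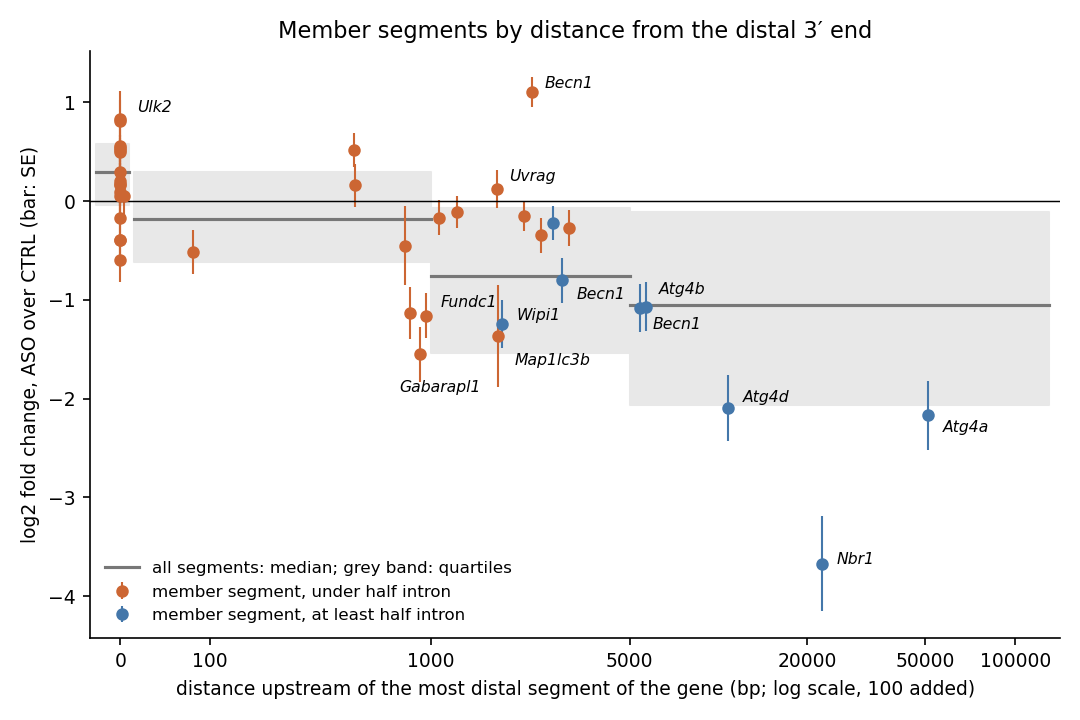
Log2 fold change with SE of each tested member segment against its distance upstream of the most distal segment of its gene (log scale after adding 100 bp), coloured by intron content. Grey bands and lines give the quartiles and median of all 10652 tested segments in the same 4 ranges, with medians of 0.30, -0.18, -0.76 and -1.05, and the member segments beyond 5000 bp lie between -1.07 and -3.67.

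Usage of segments, the share of a gene's counts on each, was tested with diffSpliceDGE, and 6 of the 10 members with at least 2 tested segments passed, beside 67.2% of all 2272 such genes, so the share was no higher among the members. The 6 are Becn1 (adjusted p = 1.18e-08), Wipi1 (adjusted p = 3.55e-06), Gabarapl1 (adjusted p = 0.000455), Atg4a (adjusted p = 0.0015), Atg4b (adjusted p = 0.0188) and Fundc1 (adjusted p = 0.0287). Rb1cc1, Atg10, Sqstm1 and Pink1 did not pass.

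Becn1, with a fold near 0 in sum, had segments that differed in opposite directions. Its segment 2310 bp upstream was at 45.5, 41.2, 41.04, 30.0 and 32.8 CPM in CTRL and at 79.7, 81.7, 78.7, 82.0 and 88.4 CPM with the ASO (log2 fold change 1.10, SE 0.15, adjusted p = 0.000145 by edgeR over all segments). Its segment 5431 bp upstream was at 33.9, 31.1, 36.1, 35.3 and 42.4 CPM in CTRL and at 20.9, 20.01, 8.002, 14.2 and 21.1 CPM with the ASO (log2 fold change -1.08, adjusted p = 0.00331). Neither segment had overlapping groups, and the first is all untranslated exon of the canonical transcript while the second has 350 intronic bases. Of the 500 bases of the first, 440 are also covered by opposite-strand sequence counted for another gene. Another segment, 2924 bp upstream with 394 intronic bases, was also lower (-0.80, adjusted p = 0.0136), and the most distal segment of Becn1 held 18 counts.

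Wipi1 behaved alike, with its most distal segment higher, at 139.4 ± 19.9 and 205.5 ± 57.2 CPM (log2 fold change 0.56, adjusted p = 0.033). Its wholly intronic segment 1801 bp upstream was lower, at 30.5 ± 9.79 and 12.8 ± 1.74 CPM (log2 fold change -1.25, adjusted p = 0.00152). In Gabarapl1 and Fundc1 the upstream segments are untranslated exon rather than intron. The segments of Gabarapl1 840 and 912 bp upstream had log2 fold changes of -1.13 (adjusted p = 0.00486) and -1.55 (adjusted p = 0.00089), while its most distal one had 0.05 (adjusted p = 0.903). Fundc1 had -1.16 (adjusted p = 0.00157) 960 bp upstream and -0.40 (adjusted p = 0.0935) on the most distal segment.

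**Figure D4:**
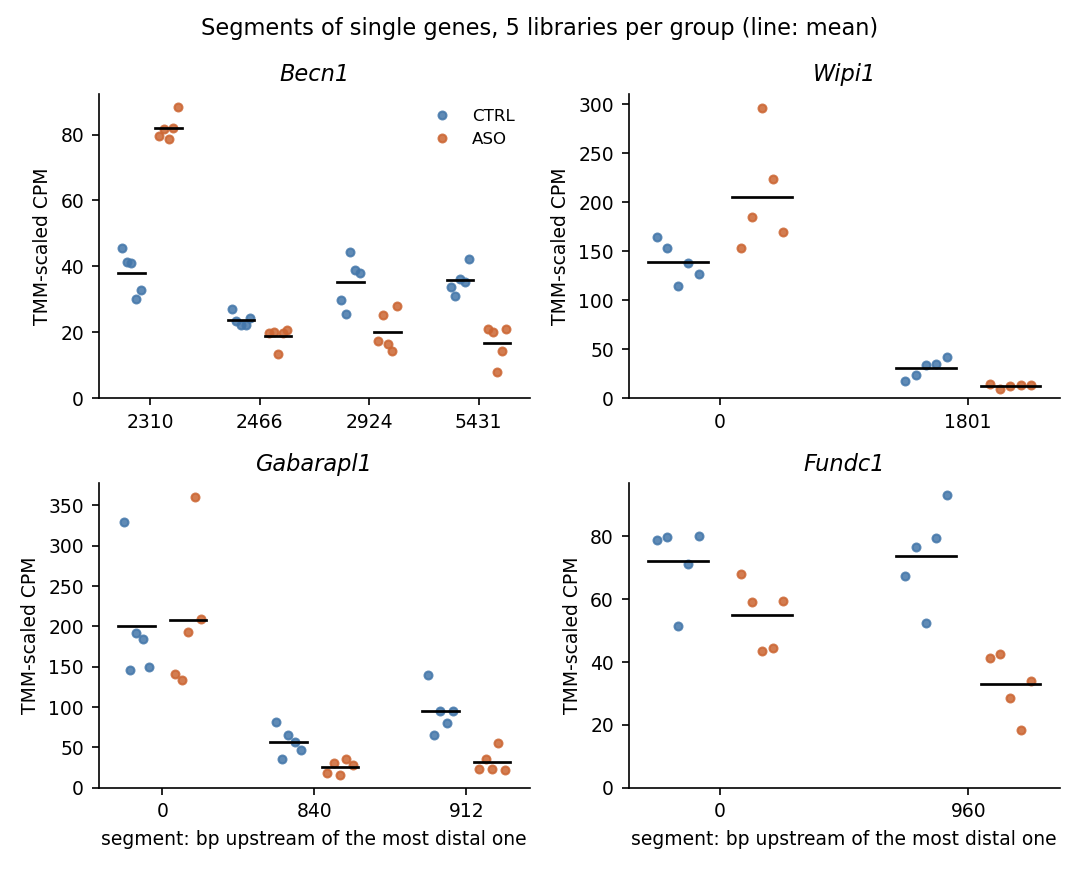
CPM of each tested segment of Becn1, Wipi1, Gabarapl1 and Fundc1 in the 5 CTRL (blue) and 5 anti-miR-22 ASO (orange) libraries, with lines at the means and segments named by their distance in bp upstream of the most distal one. In Becn1 the ASO points lie above CTRL at 2310 bp and below it at 5431 bp.

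Counted on the most distal segment of each gene alone, with its own scaling, 0 members were higher by edgeR and 3 were lower, namely Gabarap (-0.72, adjusted p = 0.0307), Gabarapl2 (-0.93, adjusted p = 0.0302) and Fundc1 (-0.71, adjusted p = 0.0304). In that fit Ulk2 had a log2 fold change of 0.52 (adjusted p = 0.0667), Map1lc3a one of 0.20 (adjusted p = 0.322), Tax1bp1 one of 0.19 (adjusted p = 0.326) and Ulk1 one of 0.18 (adjusted p = 0.436). Atg4b and Atg4d had too few counts there to be tested. Atg4a and Nbr1 could not be tested there either, since their most distal segments have 0 bases of their own. With exonic segments alone, a fit added after the data were seen, Ulk2 (0.71, adjusted p = 0.0154), Tax1bp1 (0.39, adjusted p = 0.044) and Becn1 (0.57, adjusted p = 0.0063) were higher, and Gabarap (-0.52, adjusted p = 0.0441), Gabarapl2 (-0.72, adjusted p = 0.0391) and Fundc1 (-0.85, adjusted p = 0.00856) lower. Atg4a (-0.64, adjusted p = 0.0592) and Ulk1 (0.37, adjusted p = 0.0675) missed the threshold in it, and Map1lc3a, whose segment is partly intronic, was left out of it. Fundc1 was the only member called in the same direction in all 3 of these fits.

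The position of the counts along genes also separated the libraries as a whole. A distal index, the middle value over 1283 genes of how far, in log2, counts on the gene's last segment exceed those lying at least 1000 bp further upstream, was 0.332, 0.439, -0.074, -0.29 and -0.582 in CTRL and 1.184, 1.228, 1.766, 1.479 and 1.523 with the ASO (exact permutation test, two-sided, p = 0.00794, n = 5 and 5). Intronic segments held 11.2% ± 1.05 of all counts in CTRL and 7.87% ± 0.398 with the ASO, and 7.35% ± 2.05 and 2.84% ± 0.735 of the members' counts (both p = 0.00794 by the same exact test). No ASO library overlapped with CTRL in these 3 measures. The groups also differed in depth, since every ASO library held more counts than every CTRL library, and with all libraries drawn down to the smallest total 4 members were higher and 5 lower, as without this step. The cause of the library-wide difference was not tested, and the treatment and any other difference between the groups of libraries cannot be told apart.

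**Figure D5:**
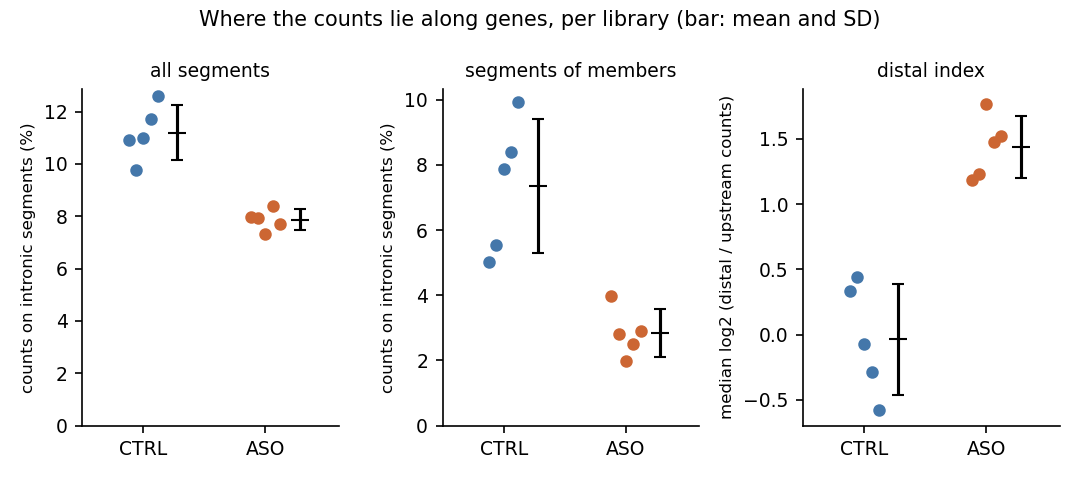
Percent of counts on intronic segments, over all genes (left) and over the members (middle), and the distal index in log2 units (right), per library with mean and SD. The ASO libraries lie at 7.32% to 8.4% on the left, below the 9.77% to 12.6% of CTRL, and at 1.184 to 1.766 in the index, above CTRL.

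Library totals lay between 1606909 and 2116720 counts in CTRL and between 2239186 and 2632560 with the ASO. Summed muscle fiber markers were higher with the ASO (53100 to 102000 against 106000 to 171000 CPM, 3 of 6 tested called higher, with Tnnt3, Mb and Eno3 at 0), as were satellite cell markers (43.8 to 66.2 against 96.1 to 123 CPM, 1 of 3 tested called higher). Macrophage markers overlapped (296 to 1850 against 79.7 to 622 CPM, 2 of 7 tested called lower, with Adgre1 and Cd163 at 0), as did the endothelial, fibroblast, adipocyte, Schwann cell and blood lists, of which 1 fibroblast gene was called lower. Their part in the members' values was not tested.

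Further genes of the pathway came from a list of 68 regulators, of which 55 were tested, 9 were higher and 16 lower. The 45.5% called stand beside 29.2% of all tested genes. Factors of fusion with the lysosome had 3 higher and 6 lower of 11 tested. Initiation and phagophore factors had 1 and 4 of 14, and cargo receptors 1 and 3 of 9. Mitophagy genes had 3 and 3 of 13, and genes of the transcription group 1 and 0 of 8. The 8 with the smallest adjusted p were all lower. Of initiation they hold Nrbf2, a subunit of the PI3-kinase complex (-1.87, adjusted p = 0.000224), Tbc1d14, a Rab regulator (-3.19, adjusted p = 0.000757) and Rab1a, a GTPase of early secretion (-0.83, adjusted p = 0.00168). Of the receptors they hold the endoplasmic reticulum receptor Retreg1 (-3.03, adjusted p = 0.00044) and the ferritin receptor Ncoa4 (-2.19, adjusted p = 0.00193). The rest are Nipsnap2, a mitochondrial eat-me signal (-1.74, adjusted p = 0.00063), the mitochondrial ubiquitin ligase Mul1 (-1.81, adjusted p = 0.00111) and Rab7, the late endosome GTPase (-0.89, adjusted p = 0.00123).

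Position went with direction in this list too, where a gene with a single segment likewise has all its counts on the most distal one by annotation. The 9 higher genes had between 63.1% and 100% of their counts on the most distal segment, whereas 14 of the 16 lower genes had less than 50% there and 8 had none. Nrbf2, Nipsnap2, Ncoa4, Mul1, Tbc1d14, Retreg1, Rab7 and Rab1a, the 8 named, had between 0% and 9.08% of their counts on it. Without CTRL replicate 4 the count of higher genes in the list was 5, and on the most distal segments alone 3 were higher and 2 lower.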

How the data were processed

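RNA of 10 GAS samples of DIO mice was sequenced from stranded, poly(A)-selected libraries. The authors deposited counts of read pairs, made with fastp, STAR on GRCm39 and featureCounts and with counts kept for the final 500 bp of each 3′UTR and not normalized, as named in the methods and the labels. The 4 per-sample columns that match no label were not used. The authors' annotation is named as Gencode M25, and 52361 of 52423 segment identifiers were found in GENCODE M39, which gave gene symbols and positions. The 62 others hold 0.0197% of the counts. Segments of opposite strands kept separate counts: of 38 segments wholly covered by opposite-strand segments of another gene alone, 36 had counts.

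Segments were summed per gene and fitted with edgeR 4.0.16 in R 4.3.3 (TMM, filterByExpr, quasi-likelihood test, Benjamini-Hochberg adjustment, threshold 0.05), and diffSpliceDGE was used for segment usage. Totals of 1606909 to 2632560 counts per library limit low genes. Intervals are at 95%. Alternatives were DESeq2 1.42.0, limma-voom (limma 3.58.1), other scalings and filters, the replicate block, each library left out, thinned libraries, most distal segments alone and, added after the data were seen, exonic segments alone (at least 90% within exons of the canonical transcript). The fits were tested on simulated counts. Intronic segments are those with at least 50% of their bases in its introns. The distal index used genes with segments of at least 200 own bases and at least 50 counts on either side, with 0.5 added. Copies of segments were sought with minimap2 2.31 (at least 95% identity over 100 bp).

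The members and lists were chosen with earlier results of these data known. Members past the threshold are given by library, others by role. Of the wider list the 8 with the smallest adjusted p are named.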

Additional observations from a re-analysis of the deposited data

Results flagged for a closer look

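In 4 of 50 groups of 5 libraries, 1 library stood apart from the rest of its group by Dixon's criterion (gap over range above 0.71), which chance passes in about 1 of 20 groups. All 4 are high values in CTRL. Ulk1 was at 218.7 CPM in CTRL replicate 2, with the next library at 176.4. Atg5 was at 38.67 CPM in CTRL replicate 1, with the next at 25.96. Gabarap was at 208.5 CPM in CTRL replicate 3, with the next at 165.1. Bnip3 was at 1100 CPM in CTRL replicate 1, with the next at 709.1.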

How the results depend on the processing

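Against 4 members higher, 5 lower and 9 of the wider list higher, total counts gave 1, 9 and 3. Most distal segments alone gave 0 and 3 members and 3 higher and 2 lower of the wider list, and exonic segments alone gave 3 members lower. The replicate numbers do not pair the samples (same-numbered libraries correlated between -0.427 and 0.163, and 1 of 10 correlated best with its own number). With the replicate block 5 of the wider list were higher, 3 members were higher and 5 lower, and Ulk1 was the member call that was lost (adjusted p = 0.0527). Leaving out 1 library gave 3 to 6 members higher and 4 to 6 lower, 5 to 9 of the wider list higher and 13 to 18 lower, and 4 to 6 members with differing usage. No called member changed sign in the alternatives it could be fitted in; Atg4a, Atg4b, Atg4d and Nbr1 could not be fitted on most distal segments, Map1lc3a, Atg4b, Atg4d and Nbr1 not on exonic segments, and Nbr1 not with at least 10 counts in every library. Members near 0 did, without passing the threshold: Becn1 was at -0.0061 in limma-voom, -0.18 with total counts, -0.030 with at least 10 counts in every library, -0.0051 with the replicate block and between -0.033 and 0.10 with 1 library left out. Atg101 was at -0.020 with total counts and -0.12 on most distal segments, Atg10 at -0.084, -0.25 and, on exonic segments, -0.036, Bnip3 at -0.041 on most distal segments, Uvrag at 0.056 on exonic segments, and Sqstm1 between -0.18 and 0.0050 with 1 library left out. Of all values of single members under these alternatives, 473 kept their direction and side of the threshold, 18 fell short of it, 25 newly passed it, among them values of Pink1, Gabarap, Gabarapl2 and Map1lc3b, and 16 changed sign. The causes were not tested. The filter on low counts left 16 members untested, 11 of them with at most 20 bases of their own.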

Other observations

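Promoters of 34 members were found in the RefSeq table (GRCm38.p6, 250 bases before to 50 after the start site). The E-box letters CACGTG, the core that TFEB and TFE3 recognise, occurred on either strand in 5 of them (Atg3, Atg5, Atg7, Atg14 and Bnip3), 14.7%, beside 8.09% of 27025 genes, and the longer form TCACGTGA, which holds the shorter one, in Atg3 and in 1.12% of all genes. The forkhead letters GTAAACA, sought on both strands, occurred in 0 of the 34 and in 4.05% of all genes. Of the 5 genes with the E-box, Atg5 (-0.21) and Bnip3 (0.25) were tested, and neither passed the threshold by edgeR (adjusted p = 0.443 and 0.36).

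Near-identical stretches elsewhere in the genome also touched Atg4a, whose segment at 75 bp from the distal end has 1 copy with 99% identity over 499 bp, and 2 segments of Sqstm1 with 29 and 129 counts. The log2 fold change of Atg4a on that segment was -0.52 (adjusted p = 0.0794).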
